A study of Mus musculus with 7 samples.

Results

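The 9 genes described here cover the metabolic and oxidative weapons of activated macrophages: Irg1, Nos2, Arg1 and Ido1, which make itaconate, make nitric oxide, split arginine and split tryptophan, Cybb, Cyba, Ncf1 and Ncf4, which encode parts of the phagocyte NADPH oxidase, and Sod2, a superoxide dismutase. They were taken by symbol from a table of 23420 gene rows, and all 9 were found. The list was chosen by function with the normalized counts of these libraries and the fold changes between the groups already known, so the difference between the groups describes them and is not offered as a test of them. Hearts of 7 mice aged 3 to 6 weeks were profiled by bulk sequencing of total RNA, from flash-frozen ventricle per the protocol, although the tissue label reads whole heart. The 4 control mice were labelled Ctla4+/+;Pdcd1-/- and the 3 mice with myocarditis of the kind caused by immune checkpoint inhibitors (ICI-myocarditis) were labelled Ctla4+/-;Pdcd1-/-. All 7 mice therefore lacked PD-1 by label, none was treated (so no inhibitor was given), and no mouse with intact Pdcd1 was among the samples. The study as titled concerns abatacept and ruxolitinib for myocarditis of this kind, and the comparison asks which transcripts differ in the affected heart.

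Macrophages that meet interferon-gamma or microbial products rewire their metabolism. Irg1 (now named Acod1) diverts cis-aconitate from the citric acid cycle into itaconate, which inhibits succinate dehydrogenase. Inducible nitric oxide synthase (Nos2) and arginase 1 (Arg1) compete for arginine, and Ido1 opens the kynurenine pathway by which tryptophan is broken down. The phagocyte oxidase is a membrane flavocytochrome of gp91phox (Cybb) and p22phox (Cyba), which passes electrons to oxygen once cytosolic subunits, among them p47phox (Ncf1) and p40phox (Ncf4), and the GTPase Rac have joined it. The superoxide it makes is outside the cell or in the phagosome, whereas Sod2 removes superoxide inside mitochondria and is abundant in heart muscle.

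Values are normalized counts, that is, gene reads divided by a size factor of the library, from 20931730 to 39037176 reads per library. Markers of heart muscle were abundant in every library (9 of 9 present, summed level 1803712 to 4715636 normalized counts). Control 2 stood apart from the other controls in T cell and dendritic cell markers, and less so in macrophage markers. Its summed neutrophil and B cell markers were close to those of control 3 (307.2 against 278.0 and 236.8 against 205.5). Summed heart muscle markers were lowest in control 2 among the controls (2366058, against 3754332 to 4715636 in the others). The 7 measured T cell markers summed to 1647 normalized counts in control 2, against 95.1 to 184.2 in controls 1, 3 and 4 and 6774 to 10373 in ICI-myocarditis. Log2 fold changes of the 9 genes, and of other named genes for which control 2 stood far from the other controls, are therefore given with and without it. The genotype could not be checked from counts per gene: Pdcd1 had 2.5 to 244.2 normalized counts in controls and 1096 to 1481 in ICI-myocarditis, and Ctla4 was also higher in ICI-myocarditis (log2 fold change 2.40).

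Sequence around the transcript start, from RefSeq (build GRCm38.p6), was matched for 5 of the 9 genes: Irg1, Cybb, Cyba, Ncf1 and Sod2. Shown here are the 250 bases before the start and the first 30 bases after it for 3 genes that were higher in ICI-myocarditis and for Sod2, which was lower, because they differ in the kinds of control motif they hold. The windows are chr14:103046762-103047041 (plus strand) for Irg1, chrX:9469295-9469574 (minus strand) for Cybb, chr5:134229596-134229875 (minus strand) for Ncf1 and chr17:13007589-13007868 (plus strand) for Sod2. The Cybb window lies inside the gene bounds given for Cybb among the results, at the start of the GENCODE M21 transcript used for its length. Capitals mark every match, on either strand, to 6 motifs.
Irg1: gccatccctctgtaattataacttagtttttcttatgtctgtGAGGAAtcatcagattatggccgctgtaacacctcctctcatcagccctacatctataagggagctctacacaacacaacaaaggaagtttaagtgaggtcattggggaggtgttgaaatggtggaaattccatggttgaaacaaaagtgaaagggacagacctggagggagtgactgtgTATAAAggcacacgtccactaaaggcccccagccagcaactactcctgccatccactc
Cybb: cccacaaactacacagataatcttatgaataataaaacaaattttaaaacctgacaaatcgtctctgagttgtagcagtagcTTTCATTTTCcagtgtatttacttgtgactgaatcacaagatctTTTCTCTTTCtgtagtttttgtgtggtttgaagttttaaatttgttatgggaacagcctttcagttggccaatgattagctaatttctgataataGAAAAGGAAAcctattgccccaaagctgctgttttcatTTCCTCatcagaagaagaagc
Ncf1: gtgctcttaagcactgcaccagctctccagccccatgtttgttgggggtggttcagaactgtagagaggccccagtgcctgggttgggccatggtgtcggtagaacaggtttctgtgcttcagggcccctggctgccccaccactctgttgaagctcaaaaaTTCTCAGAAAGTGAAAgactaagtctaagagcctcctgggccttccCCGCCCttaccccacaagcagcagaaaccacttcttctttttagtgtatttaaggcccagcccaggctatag
Sod2: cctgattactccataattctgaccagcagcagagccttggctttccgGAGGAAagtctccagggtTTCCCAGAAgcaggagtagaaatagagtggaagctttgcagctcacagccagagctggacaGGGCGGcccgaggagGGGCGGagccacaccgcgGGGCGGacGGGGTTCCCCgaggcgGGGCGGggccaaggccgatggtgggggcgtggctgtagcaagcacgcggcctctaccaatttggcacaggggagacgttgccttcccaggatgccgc

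The motifs were the core of the interferon-stimulated response element, bound by IRF and STAT complexes (GAAA, any 2 bases, GAAA), the gamma-activated site, bound by STAT dimers (TTCNNNGAA), the core bound by PU.1, a factor of myeloid cells (GAGGAA), the GC box bound by Sp1 (GGGCGG), the TATA box (TATAAA) and the NF-kappaB consensus. Of all 32851 RefSeq windows of the same length, 3.28% held the response element, 7.83% the gamma-activated site, 26.0% the PU.1 core, 34.7% the GC box, 13.1% the TATA box and 4.22% the NF-kappaB consensus. Cybb held 3 matches to the response element, at positions -168, -124 and -29 from the start, and a PU.1 core at position 10 of the transcript. Ncf1 held 1 response element and 1 gamma-activated site, which overlap each other, and a GC box. Irg1 held a PU.1 core and a TATA box and no match to the response element as spelled here. Sod2 held 4 GC boxes, a gamma-activated site, a PU.1 core and an NF-kappaB match, and the window of Cyba (not shown) held 2 GC boxes only. These are matches of letters, not sites shown to be bound.

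Of the 9 genes, 7 were called higher and 1 lower in ICI-myocarditis, and Nos2 was not called, where called means an adjusted p below 0.05 in limma's fit over 15258 genes. Over all genes tested, 11.7% were called higher and 4.0% lower. Because the 9 genes were chosen with this contrast known, nothing is read from that count. The median log2 fold change was 2.95 over the 9 genes and -0.02 over all genes tested. All 9 passed the filter on low values, Irg1 only through the 3 ICI-myocarditis libraries and control 2. The call of Irg1 therefore had to point upward. For the 7 genes called higher, each ICI-myocarditis library lay above each control, and for Sod2 each lay below. Over all genes tested, groups were apart in this way for 17.3% of genes upward and 11.3% downward. In RNA from whole tissue, more cells of a type cannot be told apart from more RNA per cell.

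**Figure D1:**
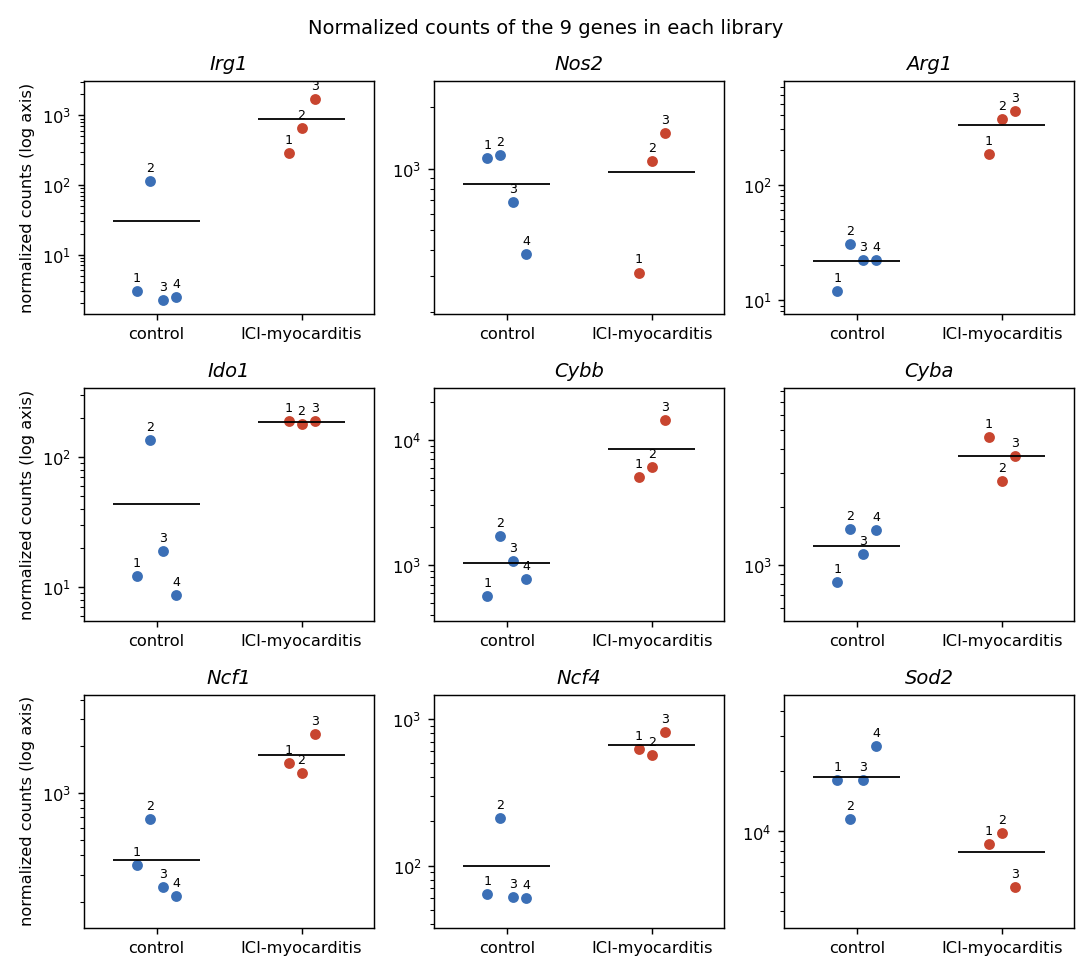
Normalized counts of the 9 genes (log axis, a separate scale per gene) in 4 control libraries (blue) and 3 ICI-myocarditis libraries (red), numbered by replicate, with the group mean as a line. Control 2 is the highest control for 8 of the 9 genes, and the groups overlap only for Nos2.

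Irg1 (chromosome 14, 103047012 to 103056573, plus strand, 5 exons) showed the largest fold change of the 9 genes. It had 3.02, 116.0, 2.23 and 2.50 normalized counts in controls 1 to 4 and 289.6, 654.4 and 1729.9 in ICI-myocarditis 1 to 3. Controls 1, 3 and 4 were thus close to absence, control 2 held 44.8 times their mean, and ICI-myocarditis libraries differed among themselves by 5.97-fold. Group means were 30.9 ± 56.7 (SD, n = 4) and 891.3 ± 748.8 (SD, n = 3), with a log2 fold change of 6.34 (SE 1.22). Without control 2 the mean of the controls was 2.59 and the log2 fold change 7.60 (SE 0.577). On the recovered reads edgeR gave 4.82 over all 7 libraries.

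Arg1 (chromosome 10, 24915207 to 24927470, minus strand, 8 exons), the arginase of the urea cycle and of alternatively activated macrophages, was low in every control. Its normalized counts were 12.1, 30.8, 22.3 and 22.5 in controls and 182.1, 366.7 and 436.3 in ICI-myocarditis. Control 2 was the highest control here too, but only 1.62 times the mean of the others. The log2 fold change was 3.82 (SE 0.422), from 21.9 ± 7.67 (SD, n = 4) to 328.4 ± 131.3 (SD, n = 3), and 4.00 without control 2. Its SE was about as small as that of the oxidase genes, unlike that of Irg1.

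Nos2 (chromosome 11, 78920787 to 78960226, plus strand, 27 exons), which draws on the same arginine, did not separate the groups. Controls had 1122, 1167, 685.6 and 384.1 normalized counts and ICI-myocarditis libraries had 311.0, 1092 and 1489. The lowest and the highest of the 7 libraries were both ICI-myocarditis libraries. The means were 839.7 ± 373.4 (SD, n = 4) and 964.1 ± 599.4 (SD, n = 3). The log2 fold change was 0.06 (SE 0.558), so a change of either sign, also beyond that error, could have gone undetected with these libraries. Its sign turned in 4 of 17 alternative analyses, and it ranged from -0.39 without ICI-myocarditis 3 to 0.73 without ICI-myocarditis 1. Of these 4, the replicate block and leaving out control 4 gave the same estimate (-0.275). Nos2 reads were well above the floor in controls, unlike those of Irg1, Arg1 and Ido1. Set against Arg1 within each library, per kilobase of transcript, Nos2 was 32.7, 13.3, 10.8 and 6.01 times as abundant in controls and 0.602, 1.05 and 1.20 times in ICI-myocarditis. Every ICI-myocarditis library thus lay below every control in this ratio. As Nos2 itself overlapped between groups, this restates the rise of Arg1 (3.82) and is not a fall of Nos2.

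Ido1 (chromosome 8, 24584133 to 24596952, minus strand, 10 exons), the interferon-inducible enzyme of tryptophan breakdown, had 12.1, 134.5, 19.0 and 8.76 normalized counts in controls and 189.3, 180.5 and 188.7 in ICI-myocarditis. The 3 ICI-myocarditis libraries differed by only 1.05-fold, the narrowest spread of the 9 genes in that group, while controls differed by 15.4-fold and control 2 came near the ICI-myocarditis level. Its log2 fold change was 2.95 (SE 0.792) and 3.77 (SE 0.351) without control 2. The call was lost in 8 of 17 alternatives, among them edgeR on recovered reads (2.06), scaling by library total (3.10) and the removal of any single library other than control 2 (2.51 to 2.97). The authors' deposited table gives Ido1 a log2 fold change of 2.10 and no adjusted p.

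Both genes of the membrane pair of the oxidase were higher in ICI-myocarditis. Cybb (chromosome X, 9435252 to 9487766, minus strand, 13 exons), the catalytic subunit, had 572.7, 1721, 1084 and 780.7 normalized counts in controls and 5067, 6031 and 14449 in ICI-myocarditis. ICI-myocarditis 3 was far above the other two, and control 2 was the highest control. The log2 fold change was 2.99 (SE 0.442), from 1040 ± 500.4 (SD, n = 4) to 8516 ± 5161 (SD, n = 3). Cyba (chromosome 8, 122424771 to 122432940, minus strand, 6 exons), whose product also pairs with other NOX enzymes, had 821.7, 1536, 1149 and 1515 in controls and 4613, 2737 and 3667 in ICI-myocarditis. Here ICI-myocarditis 1 was highest and controls 2 and 4 were nearly level. Its log2 fold change was 1.56 (SE 0.276), from 1255 ± 339.4 (SD, n = 4) to 3673 ± 938.1 (SD, n = 3). Per kilobase of transcript, Cybb stood at 0.109, 0.175, 0.148 and 0.0807 of Cyba in controls and at 0.172, 0.345 and 0.617 in ICI-myocarditis, so the ratio of ICI-myocarditis 1 lay within the range of controls.

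The cytosolic subunits followed the same grouping. Ncf1 (chromosome 5, 134220053 to 134229628, minus strand, 11 exons), the organizer that docks the complex on the membrane, had 345.8, 678.5, 247.9 and 217.7 normalized counts in controls and 1562, 1339 and 2389 in ICI-myocarditis, a difference of 2.35 on the log2 scale (SE 0.387). An exon of Gtf2ird2 lies opposite an exon of Ncf1, and as the counting is not stated to use strand, some of its reads could belong to that gene. Ncf4 (chromosome 15, 78244164 to 78262582, plus strand, 10 exons), whose product binds the phagosome lipid phosphatidylinositol 3-phosphate, had 63.5, 209.7, 61.4 and 60.1 in controls and 622.1, 569.6 and 813.8 in ICI-myocarditis, a difference of 2.96 (SE 0.439). Controls 1, 3 and 4 were nearly identical for Ncf4 and control 2 was 3.40 times their mean. Without control 2 the log2 fold changes were 3.40 (SE 0.233) for Ncf4, 2.68 (SE 0.276) for Ncf1, 3.27 (SE 0.399) for Cybb and 1.67 (SE 0.282) for Cyba. The calls of Irg1, Arg1 and these 4 oxidase genes held in all 17 alternatives. For Irg1 the direction was set by how it passed the filter on low values.

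Sod2 (chromosome 17, 13007839 to 13018119, plus strand, 5 exons) was the only gene of the 9 that was lower in ICI-myocarditis. It had 18049, 11566, 18034 and 26790 normalized counts in controls and 8671, 9783 and 5278 in ICI-myocarditis. Control 2 was the lowest control and lay nearest to those of the diseased hearts. Its log2 fold change was -1.22 (SE 0.344), from 18610 ± 6250 (SD, n = 4) to 7911 ± 2347 (SD, n = 3). The call was lost in 7 of 17 alternatives, namely with the replicate block (-1.02) and without any single library other than control 2 (-1.40 to -0.95), and without control 2 the fold change was -1.43.

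**Figure D2:**
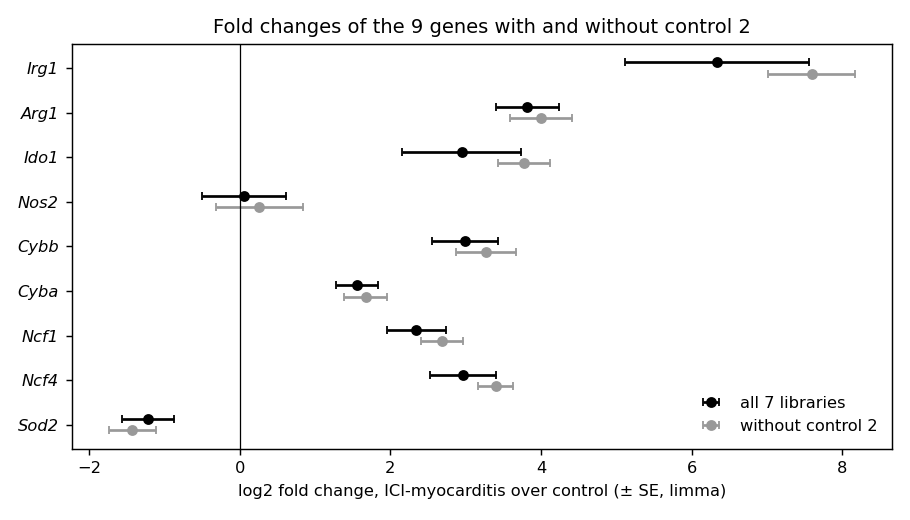
Log2 fold changes (ICI-myocarditis over control, on the scale of log2(normalized count + 1)) of the 9 genes from limma with their standard errors, over all 7 libraries (black) and without control 2 (grey). Leaving out control 2 moved Irg1 from 6.34 to 7.60 and Ido1 from 2.95 to 3.77, and shortened the error bars of both.

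Levels of different genes can be compared only per length, taken here from the longest GENCODE M21 transcript linked to a RefSeq entry. In controls Sod2 was the most abundant of the 9, with 3175 ± 1066 normalized counts per kilobase (SD, n = 4), followed by Cyba with 1687 ± 456.1, and these do not separate, as Sod2 in control 2 (1973) lay below Cyba in controls 2 and 4 (2064 and 2037). Cybb (218.8 ± 105.3), Nos2 (200.3 ± 89.1) and Ncf1 (134.8 ± 76.4) followed and overlapped one another. Ncf4 (67.4 ± 50.6), Ido1 (26.3 ± 36.7), Arg1 (14.9 ± 5.19) and Irg1 (11.8 ± 21.6) were lowest. In ICI-myocarditis Cyba was first, with 4936 ± 1261 normalized counts per kilobase (SD, n = 3), and Sod2 (1350 ± 400.4) overlapped with Cybb (1792 ± 1086). Irg1 (339.8 ± 285.5) had passed Nos2 (230.0 ± 143.0), Arg1 (222.3 ± 88.9) and Ido1 (112.4 ± 2.99) by mean, although its range, from 110.4 to 659.5, covered theirs in part.

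Most macrophage, T cell and dendritic cell markers were called higher in ICI-myocarditis, unlike most markers of neutrophils, B cells, fibroblasts and heart muscle. Of 15 macrophage and monocyte markers, 13 were called higher, and their summed level was 15417 to 21668 normalized counts in controls and 62996 to 98135 in ICI-myocarditis, highest in ICI-myocarditis 3. Of 13 neutrophil markers in the table, 6 passed the filter and 2 were called higher, Csf3r (log2 fold change 2.91) and Ltf (2.93). The neutrophil genes S100a8 (4.03 to 37.5 in controls, 5.07 to 28.3 in ICI-myocarditis) and S100a9 (5.04 to 56.3 and 10.9 to 17.6) overlapped between groups, and Elane and Mpo stayed at or below 1.23 and 4.09 normalized counts in every library. The summed neutrophil level was 125.0 to 307.2 in controls and 501.3 to 1122 in ICI-myocarditis, and Csf3r made up most of it in each ICI-myocarditis library. All 7 T cell markers and 6 of 10 dendritic cell markers were called higher, with dendritic sums of 808.2 to 3139 and 3838 to 6900. Of 9 heart muscle markers none was called by limma, 2 had an unadjusted p below 0.05, and their summed level was 2366058 to 4715636 in controls and 1803712 to 2807309 in ICI-myocarditis. The part of these cell markers in the fold changes was not tested.

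The genes were also set against the markers as a difference of log2 values within each library. The mean of the 15 macrophage markers was 2.24 higher in ICI-myocarditis (9.10 ± 0.416 against 11.34 ± 0.441 on the log2 scale). Relative to that mean Irg1 stood at -6.00 ± 2.13 in controls (SD, n = 4) and at -1.91 ± 0.907 in ICI-myocarditis (SD, n = 3), but control 2 (-2.82) lay between the ICI-myocarditis libraries. Arg1 stood at -4.65 ± 0.306 in controls and at -3.07 ± 0.485 in ICI-myocarditis, and here no libraries of the groups overlapped. Cybb (0.80 ± 0.305 and 1.56 ± 0.375 above the mean) was also apart in all libraries, while Ncf4, Ncf1, Ido1 and Cyba overlapped between groups. The difference between the groups on this measure was 0.11 for Ncf1 and -0.68 for Cyba. The 15 markers themselves had log2 fold changes from 0.09 (Cd14) to 3.46 (Fcgr1). That range holds the change of Cybb (2.99), so Cybb rose no more than some of the markers did. Arg1 (3.82) and Irg1 (6.34) lay above the range. Relative to the marker mean Nos2 stood at 0.49 ± 0.688 in controls and at -1.70 ± 0.949 in ICI-myocarditis, with no overlap between the groups. As the level of Nos2 itself hardly differed (log2 fold change 0.06), this restates the rise of the marker mean.

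Sod2 was set against the 9 heart muscle markers in the same way. The mean of these markers differed by -0.80 between ICI-myocarditis and controls on the log2 scale. Relative to it Sod2 stood at -3.41 ± 0.124 in controls (SD, n = 4) and at -3.83 ± 0.066 in ICI-myocarditis (SD, n = 3), a difference of -0.42, with every ICI-myocarditis library below every control. Control 2, the lowest control by normalized counts, was within the range of the other controls on this measure (-3.34).

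**Figure D3:**
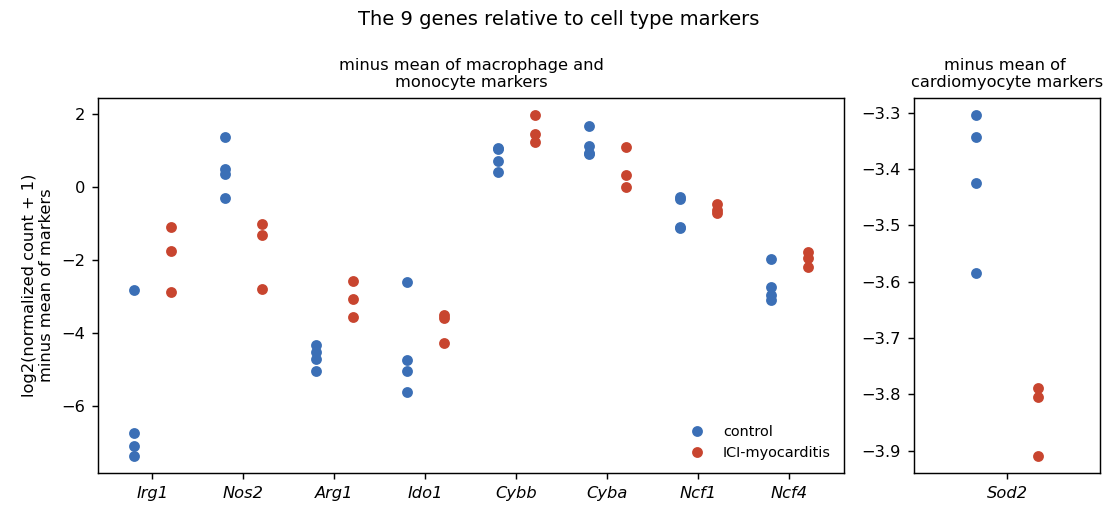
Log2(normalized count + 1) of each gene minus the mean of 15 macrophage and monocyte markers (left) or of 9 cardiomyocyte markers (right, Sod2, with its own axis) in each control (blue) and ICI-myocarditis (red) library. Arg1 and Cybb are higher in all ICI-myocarditis libraries than in all controls on this measure, Nos2 and Sod2 are lower, and the other genes overlap. For Nos2, whose own level overlapped between groups, this restates the rise of the macrophage marker mean.

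The genes around these 9 in their pathways were read from 8 lists, of which 140 genes were tested. Of these, 43 were called higher and 7 lower by limma, and the median change was 0.21 on the log2 scale. Among all genes tested 11.7% were called higher and 4.0% lower, so the number called lower is near the background. Without control 2 these counts were 49 and 29, without ICI-myocarditis 3 they were 24 and 2, and without control 3 they were 28 and 2.

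Among 14 tested partners of the oxidase, 7 rose and none fell (median 0.83). Rac2, the GTPase of blood cells that completes the complex, rose by 3.53 (SE 0.432, limma adjusted p = 0.003), from 127.0, 431.7, 146.3 and 141.4 normalized counts in controls to 1627, 1884 and 3170 in ICI-myocarditis, and by 3.94 without control 2. Its ubiquitous relative Rac1 had a log2 fold change of 0.155 (limma adjusted p = 0.675). The kinase gene Pak1 rose by 2.66 (limma adjusted p = 0.00392), or 2.98 without control 2, and called genes also included Vav1 (2.93), the proton channel gene Hvcn1 (2.24), Prkcd (1.48) and BC017643 (0.94), which were named after their values were seen. Nox4, the oxidase of heart and vessel cells that needs no cytosolic subunits, was not called (log2 fold change 0.59, limma adjusted p = 0.554), with 259.8 normalized counts in ICI-myocarditis 3 and 41.3 to 82.6 elsewhere, and its sign turned without ICI-myocarditis 3 (-0.18). Nox1, Nox3 and Noxa1 stayed below 5 normalized counts in every library.

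Of 21 genes that remove superoxide and peroxide, 2 rose and none fell (median 0.06), a share no higher than the 11.7% of all genes tested. These were Txn1 (1.21, limma adjusted p = 0.0203) and Glrx (0.96, limma adjusted p = 0.0218), whose products reduce disulfides of proteins. Each lost its call in 4 of 17 alternatives. The cytosolic dismutase Sod1 had a log2 fold change of -0.35 (limma adjusted p = 0.455), the secreted Sod3 of 0.93 (limma adjusted p = 0.0814) and catalase, Cat, of -0.69 (limma adjusted p = 0.18). The 3 dismutases thus had estimates of different size and sign, and only that of Sod2 was called. Whether they differ from one another was not tested.

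Of 23 genes of nitric oxide and arginine metabolism, none rose and 1 fell (median -0.23), and the share that fell is near the 4.0% of all genes tested. The gene that fell was Gucy1b3, a subunit of the nitric oxide receptor guanylate cyclase (-0.80, limma adjusted p = 0.0305), which lost its call in 7 of 17 alternatives. Of 8 smooth muscle and pericyte markers, 5 also fell, with summed levels of 51357 to 71004 normalized counts in controls and 21106 to 32402 in ICI-myocarditis, and their part in the value of Gucy1b3 was not tested. The endothelial synthase Nos3 had 2798, 3249, 1597 and 1162 normalized counts in controls and 1061, 1278 and 1117 in ICI-myocarditis (-0.82, limma adjusted p = 0.144). It passed the threshold in 2 of 17 alternatives, namely without control 4 and with the replicate block, which gave the same estimate (-1.09). Of 9 endothelial markers, 5 fell. The neuronal synthase Nos1 had 5.58 ± 3.15 and 13.5 ± 2.13 normalized counts (1.24, limma adjusted p = 0.138). Arg2, the mitochondrial arginase, had at most 25.2 normalized counts and no call (0.15, limma adjusted p = 0.893). Gch1, which makes the cofactor of nitric oxide synthases, was not called (-0.08, limma adjusted p = 0.846). The arginine transporter gene Slc7a2 was higher in all 3 ICI-myocarditis libraries, at 270.1, 642.8 and 1284 against 166.4 to 250.1, but missed the threshold narrowly (1.53, limma adjusted p = 0.0505) and passed it in 7 of 17 alternatives. Ass1, which remakes arginine from citrulline, had at most 1.53 normalized counts and was not tested.

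Of 21 tested genes of tryptophan and kynurenine metabolism, 8 rose and none fell (median 0.57). Ido2, the near relative of Ido1, rose by 2.94 on the log2 scale (SE 0.522; adjusted p = 0.00716 by limma), with group means of 3.23 ± 1.52 and 30.0 ± 7.56. It passed the filter on low values only through the ICI-myocarditis libraries, so its call had to point upward. The same holds for Ltf. With control 2 as the only control above the filter, it also holds for Irg1, Kynu, Qprt (also among the 8), Ccl22 and Rgs8. Slc7a5, a subunit of the transporter that brings tryptophan into cells, rose by 1.605 (SE 0.287, limma adjusted p = 0.00757). Kynu, which splits kynurenines, rose by 3.96 (limma adjusted p = 0.0172), from 1.01, 25.9, 1.12 and 2.50 normalized counts in controls to 39.9, 82.6 and 98.6, and lost its call in 4 of 16 alternatives. Without control 2 the change of Kynu was 4.83. Kmo, which hydroxylates kynurenine, was not called (0.61, limma adjusted p = 0.384), with control 2 (107.3) above every ICI-myocarditis library. Tdo2, the liver-type dioxygenase, was at 4.03 to 29.6 normalized counts with no call (0.54, limma adjusted p = 0.633), and Il4i1 was too low to test.

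Of 18 tested genes around itaconate in the citric acid cycle, 3 fell and 1 rose (median -0.92). Idh2 fell by 1.22 (limma adjusted p = 0.0358) and Suclg2 fell by 1.18 (limma adjusted p = 0.0394), and both lost the call in 7 of 17 alternatives. Slc25a1, the mitochondrial citrate carrier, rose by 1.08 (limma adjusted p = 0.0194, lost in 4 of 17 alternatives). These genes are abundant in heart muscle, and the part of the heart muscle markers in these values was not tested.

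Of 15 tested genes on the list for glycolysis of activated macrophages, 7 rose and none fell (median 0.48). Hk3, the hexokinase of blood cells, rose by 3.92 (SE 0.669, limma adjusted p = 0.00651), from 65.5, 482.3, 86.0 and 68.8 normalized counts in controls to 1263, 1437 and 3180. Without control 2 the change of Hk3 was 4.601. The lactate exporter gene Slc16a3 rose by 2.41 (limma adjusted p = 0.00528). Hif1a, the hypoxia factor that drives this programme, had a log2 fold change of 0.26 (limma adjusted p = 0.502).

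Nos2 and Arg1 are the textbook genes of classical and alternative macrophage activation, and other genes of both programmes were listed. Of 12 tested genes of classical activation 10 rose (median 3.21), led by p-value by Ptgs2, which makes prostaglandins (2.89, limma adjusted p = 0.00316), and Socs3, a brake on cytokine signals (3.16, limma adjusted p = 0.00411). Of 16 genes of alternative activation 8 rose and 3 fell (median 1.09). The transcription factor gene Egr2 (3.94, limma adjusted p = 0.00285) and the chemokine gene Ccl22 (4.95, limma adjusted p = 0.00631) rose. Some other genes counted as risen here passed the filter on low values only through ICI-myocarditis, or through it and control 2. Their calls had to point upward. The scavenger receptor gene Cd163, a marker of resident macrophages, fell by 0.92 on the log2 scale (SE 0.167; adjusted p = 0.00795 by limma), and its group means were 1252 ± 84.7 and 662.4 ± 54.8. Its call was lost in 1 of 17 alternatives, the replicate block (-0.90). The chemokine gene Ccl24 fell by 3.50 (SE 0.639, adjusted p = 0.00814 by limma), with means of 56.4 ± 10.9 and 6.26 ± 7.76. It passed the filter on low values through the controls, with only ICI-myocarditis 2 (15.2) above it in the other group. Its call could therefore hardly point upward. Chi3l3 (3.36, limma adjusted p = 0.0884) and Retnla (0.00, limma adjusted p = 0.998) were not called, and Retnla reached 289.2 normalized counts in ICI-myocarditis 2 against 17.4 to 71.6 elsewhere.

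**Figure D4:**
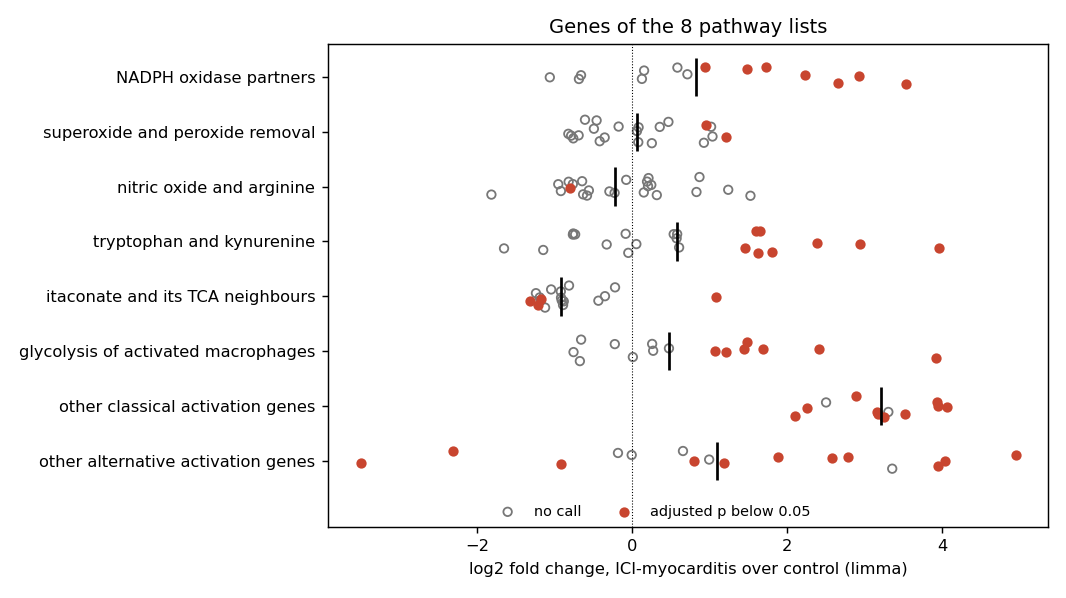
Log2 fold changes (ICI-myocarditis over control, limma) of the tested genes in each of 8 pathway lists, with filled points for an adjusted p below 0.05, open points for no call and a line at the median of the list. Medians run from -0.92 for the genes around itaconate to 3.21 for the genes of classical activation.

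The genes with profiles most like those of Irg1 and Cybb were found by the mean absolute difference between log2 values centred on each gene, over the 7 libraries. For Irg1 these were Gbp1 (0.42), a guanylate-binding protein gene with near-identical relatives, Rgs8 (0.45), a regulator of G protein signalling, and Serpina3f (0.45), also of a multigene family. Gbp1 had 8.07 and 8.93 normalized counts in controls 1 and 3, 416.9 in control 2 and 2240, 2231 and 3169 in ICI-myocarditis, with control 2 between the groups. Without control 2 the log2 fold changes were 7.98 for Gbp1, 6.82 for Rgs8 and 7.45 for Serpina3f, against 6.63, 5.88 and 6.01 over all libraries. Gbp1 lost its call with edgeR and Serpina3f in 5 of 17 alternatives. For Cybb they were Aoah (0.13), which encodes an enzyme of phagocytes that inactivates endotoxin, Plek (0.19), which encodes pleckstrin of platelets and leukocytes, and Kcnj10 (0.20), a potassium channel gene whose call was lost without ICI-myocarditis 3 (2.04). Aoah had 92.8, 236.8, 146.3 and 82.6 in controls and 637.4, 728.3 and 1858 in ICI-myocarditis, high in the same ICI-myocarditis 3 as Cybb. The likeness is a description over 7 libraries in 2 groups. The places that control 2 and ICI-myocarditis 3 share with Irg1 and Cybb follow from how these genes were chosen.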

How the data were processed

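The deposited table holds a signal per library that the authors obtained by dividing the reads of each gene by the size factor of the library. It also holds a log2 fold change per gene from the authors, the standard error of it, a score and p-values before and after adjustment, per the file headers. STAR 2.7.3 and GRCm38 (mm10) are named in the submitters' processing notes. The counting program, annotation and use of strand are not given in the sources used here. Dividing by the smallest step of each column gave whole reads for 100% of values (within 0.01), which is less telling for control 1, whose step of 1.01 is close to 1.

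limma 3.58.1 (R 4.3.3, trended and robust variance) was run on log2(normalized count + 1) for genes that reached 10 normalized counts in 3 or more libraries, with Benjamini-Hochberg adjustment over all of them and two-sided tests. The added count lowers changes of low genes: Irg1 had 6.50 with a pseudocount of 0.5 and 5.52 with 5. Even so, values on this scale were not always below those of the count models. For Irg1 limma gave 6.34 and edgeR 4.82, for Ido1 2.95 and 2.06, but for Ido2 2.94 and 3.18. edgeR 4.0.16, DESeq2 1.42.0 and limma-voom on recovered reads, other pseudocounts, filters and scaling, a replicate block and leaving out each library were alternatives. The scripts were tested on simulated data, where limma recovered 40.9% of the changed genes and 5.81% of its calls were wrong. It recovered 74% of genes with a log2 change of 2 and 7.14% of those with 1. Far fewer genes were changed there, with 86 calls by limma against 2397 in the data. The adjustment was therefore stricter in the simulation, and these shares do not carry over directly. The lack of a call is treated here as weak evidence against a log2 change of about 1.

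The 9 genes, the pathway and marker lists and the tests were chosen with earlier results of these data known. Named genes are the 9, partners set by name, the 2 called genes of each list with the lowest p in each direction, and the 3 profiles most like Irg1 and Cybb. The motifs were chosen after the promoter windows had been seen. Gene places and windows come from RefSeq on GRCm38.p6, the build the notes name. The spread between mice sets the precision. Some genes of the lists are counted but not reported here by name.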

Additional observations from a re-analysis of the deposited data

Results flagged for a closer look

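In the 4 controls, 52 named genes were examined on the log2 scale for a library whose gap to the nearest other was a larger share of the range of the group than Dixon's 95% critical value, which chance gives for about 1 in 20, or about 3 here. This held for 11 genes (the share is given in brackets), which are not independent of one another. Control 2 was the library apart, on the high side, for 8 of them: Rgs8 (1.0), Ncf4 (0.955), Gbp1 (0.949), Irg1 (0.939), Serpina3f (0.903), Rac2 (0.885), Pak1 (0.88) and Hk3 (0.865). Rgs8, Gbp1 and Serpina3f were named for their likeness to Irg1 over these same libraries. Their flags therefore follow from that choice, and the number flagged cannot be set against chance. The other 3 were low genes: Ass1, read in control 1 only (1.0), Arg2, low in control 4 (0.889), and Ido2, low in control 1 (0.849).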

How the results depend on the processing

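Over 17 alternatives, 21 of the 34 named genes that were called kept their call throughout, 13 lost it in at least 1, and none of the 34 changed sign. The 9 genes gave 6 to 8 calls. Over all genes the 2397 calls became 4038 with limma-voom, 3441 with DESeq2, 2076 with edgeR and 1080 to 3345 with 1 library left out (lowest without ICI-myocarditis 3, highest without control 2). Pathway genes called lower (7) numbered 21 with DESeq2, 29 with limma-voom, 3 with the replicate block and 2 to 29 with 1 library left out. Those called higher (43) numbered 24 to 49 with 1 library left out. The cause was not tested. Scaling by library total moved the median log2 fold change of all genes from -0.02 to 0.13. Serpina3f lost its call in 5 alternatives.

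Same-numbered libraries did not deviate together (correlations of deviations -0.271, -0.206 and -0.0784), so no sign of pairing by number was seen. With 3 shared numbers, and differently numbered libraries ranging from -0.477 to 0.451, this check cannot exclude pairing. The replicate block gave 1780 calls over all genes and 7 among the 9 genes. It turned Nos2 (-0.28), Arg2 (-0.30) and Retnla (0.16).

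Genes with no call changed sign as follows. Nos2 ranged from -0.39 to 0.73 and Arg2 from -0.30 to 0.35 with 1 library left out, and limma-voom gave -0.26 for Arg2. Nox4 was -0.16 with limma-voom and -0.18 (without ICI-myocarditis 3) to 1.02 with 1 library left out. Gch1 was 0.003 with limma-voom and 0.083 with scaling by library total. Retnla was 0.05 with a pseudocount of 5, 1.01 with edgeR, 1.27 with limma-voom, 0.152 with scaling by library total and -1.25 to 0.74 with 1 library left out.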
